A study of Mus musculus with 14 samples.

Results

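Erythroid genes are described here through 8 of them, Gata1, Klf1, Epor, Car1, Alas2, Slc4a1, Ermap and Hemgn, across sorted bone marrow cells of mice that had lost Dnmt1, which keeps DNA methylation in place when cells divide, and of control littermates. The genes were chosen by symbol, with earlier results of these data known. Every probe set that the platform annotation gives to 1 of these symbols alone was taken: 10 probe sets of 22690, for 8 genes of 12393. All 8 genes passed a filter on dim probe sets and were among the 8612 genes tested.

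All mice were C57BL/6 and Dnmt1 fl/fl. The knockout had Mx-Cre in addition, a Cre transgene that poly(I)poly(C) switches on, and that is not limited to 1 cell type; control mice lacked it. Both genotypes, aged 8 to 12 weeks, were injected 7 times with 25 ug/kg of poly(I)poly(C), so the controls share the exposure to an interferon inducer, and marrow was taken on day 4 after the last injection. From lineage-depleted marrow, sorting gave 3 populations, the long-term hematopoietic stem cells (LT-HSCs), gated as Kit+ Sca-1+ CD34-, the multipotent progenitors (MPPs), gated as Kit+ Sca-1+ CD34+, and the myeloid progenitors, which were Kit+ but Sca-1-. The 7 littermate pairs of 1 knockout and 1 control array comprise 2 of LT-HSCs, 2 of MPPs and 3 of myeloid progenitors. Each array holds RNA pooled from 4 to 6 mice of 1 genotype, so errors and p-values describe pools and not single mice.

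Red cell formation starts in progenitors that switch on the transcription factors Gata1 and Klf1, which together drive most genes of the lineage, and that come to depend on the erythropoietin receptor, Epor, for survival. Gata1 protein binds GATA motifs and Klf1 binds CACCC-like motifs at these genes. Genes of hemoglobin, heme synthesis and the red cell membrane reach their full level only later, in precursors that have left the progenitor gates used here. In bulk RNA of a sorted gate, fewer cells of a type and less RNA per cell cannot be told apart.

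RefSeq promoter windows, the 250 bases before the annotated start in build GRCm38.p6, were given for 6 of the 8 genes. Those of Klf1, Epor, Ermap and Alas2 are shown because the first 3 belong to genes that varied together across the arrays and the last to one that did not. Capitals mark a GATA motif on either strand, here AGATAA or the same letters with T in the first place, G in the last, or both. The windows lie at chr8:84901732-84901981 on the plus strand for Klf1, chr9:21963577-21963826 on the minus strand for Epor, chr4:119189996-119190245 on the minus strand for Ermap and chrX:150547167-150547416 on the plus strand for Alas2, each written 5′ to 3′ in the direction of the gene.
Klf1: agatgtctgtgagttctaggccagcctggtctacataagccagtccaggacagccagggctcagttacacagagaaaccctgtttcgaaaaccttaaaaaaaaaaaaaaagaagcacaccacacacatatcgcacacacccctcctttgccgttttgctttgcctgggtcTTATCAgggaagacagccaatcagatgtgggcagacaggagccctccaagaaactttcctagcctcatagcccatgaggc
Epor: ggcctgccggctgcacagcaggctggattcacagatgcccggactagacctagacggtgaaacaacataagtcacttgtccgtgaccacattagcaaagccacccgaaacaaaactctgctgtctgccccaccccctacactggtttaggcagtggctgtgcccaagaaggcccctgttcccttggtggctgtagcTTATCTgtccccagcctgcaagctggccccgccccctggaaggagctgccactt
Ermap: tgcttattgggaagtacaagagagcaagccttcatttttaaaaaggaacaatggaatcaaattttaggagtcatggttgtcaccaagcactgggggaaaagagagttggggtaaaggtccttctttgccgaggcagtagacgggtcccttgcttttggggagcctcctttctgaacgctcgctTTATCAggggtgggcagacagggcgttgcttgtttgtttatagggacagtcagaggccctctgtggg
Alas2: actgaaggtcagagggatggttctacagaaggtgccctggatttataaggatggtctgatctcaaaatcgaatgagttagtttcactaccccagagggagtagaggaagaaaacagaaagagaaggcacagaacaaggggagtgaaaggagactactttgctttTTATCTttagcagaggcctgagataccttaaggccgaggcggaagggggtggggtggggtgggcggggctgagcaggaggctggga

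A GATA motif stood in 5 of the 6 windows, all but that of Gata1, whereas 26.5% of 32851 RefSeq mouse windows of this length hold one. It began 80 bases before the start in Klf1, 54 in Epor, 67 in Ermap, 86 in Alas2 and 13 in Hemgn. The CACCC-like motif CCNCNCCC, on either strand, stood in 4 of the 6 windows, those of Gata1, Epor, Alas2 and Hemgn, and in 45.9% of all windows. CG dinucleotides, the sites that Dnmt1 methylates, numbered 2 in Gata1, 3 in Klf1, 6 in Epor, 5 in Ermap, 4 in Alas2 and 3 in Hemgn, against a median of 6 over all windows. These matches describe letters, and methylation or binding was not measured.

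Dnmt1 itself was lower in the knockout array of all 7 pairs, at 745 to 1305 units of intensity on knockout arrays and 1328 to 2219 on control arrays by its brighter probe set. Its other probe set read 501 to 870 units on knockout and 1228 to 2107 on control arrays. Knockout arrays thus kept part of the Dnmt1 signal. Array medians lay between 41.1 and 49.1. The arrays labelled LT-HSC go partly against their label: the summed intensity of 11 B cell markers was 6487 to 10098 in knockout and 7416 to 13796 in control LT-HSCs, against 190.0 to 2656 in knockout and 311 to 686 in control MPPs. Of 8 stem cell genes, 2 had positive differences in control LT-HSCs minus control MPPs, with a median of -1.23. By limma 5 were lower and 0 higher at an unadjusted p under 0.05. The 1 gene past the limma threshold was Cd34, which the gate selects against. It was lower at -4.17 log2 units (adjusted p = 0.0037), as the label has it. The 5 stem cell genes other than Cd34, Kit and Flt3 summed to 753 to 831 in knockout and 258 to 918 in control LT-HSCs. Their sums were 563 to 1248 in knockout and 797 to 2060 in control MPPs, so the ranges overlapped in both genotypes. The ratio of the Gapdh 3′ to 5′ probe sets, a sign of RNA length, was 5.15 in knockout and 5.44 in control LT-HSC pair 1, 2.33 in knockout and 5.27 in control myeloid progenitor pair 1 and 4.35 in knockout and 4.30 in control myeloid progenitor pair 2, and lay between 2.25 and 3.07 on all other arrays. The same ratio for Actb did not follow it: it was lowest in LT-HSC pair 1, at 0.75 in the knockout and 0.81 in the control, and 0.83 to 1.18 on the others. Results that use LT-HSC arrays are therefore given with and without them where they can be.

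In the stem and progenitor gates the 8 genes fell into 2 patterns by their level in control MPPs. Gata1, Klf1, Epor, Car1 and Ermap were at their lowest in control MPPs. Every array of control LT-HSCs, control myeloid progenitors and knockout MPPs lay above every control MPP array for these 5 genes. For Gata1 the margin was small in places, with 138.8 units on control LT-HSC array 1 against 94.7 on control MPP array 2. Slc4a1, Alas2 and Hemgn did not share the low in control MPPs. Across the 14 arrays, the first 5 genes correlated with each other at r of 0.69 to 0.97 (median 0.81), the other three among themselves at 0.17 to 0.69, and genes of the 2 patterns with each other at -0.26 to 0.73 (median 0.18). By correlation Hemgn lay between the patterns. Its r was 0.73 with Gata1, 0.58 with Epor, 0.44 with Klf1, 0.19 with Ermap and 0.18 with Car1, against 0.69 with Slc4a1 and 0.17 with Alas2. This grouping was made after the values were seen and describes them, and the 14 points share littermates and groups.

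**Figure D1:**
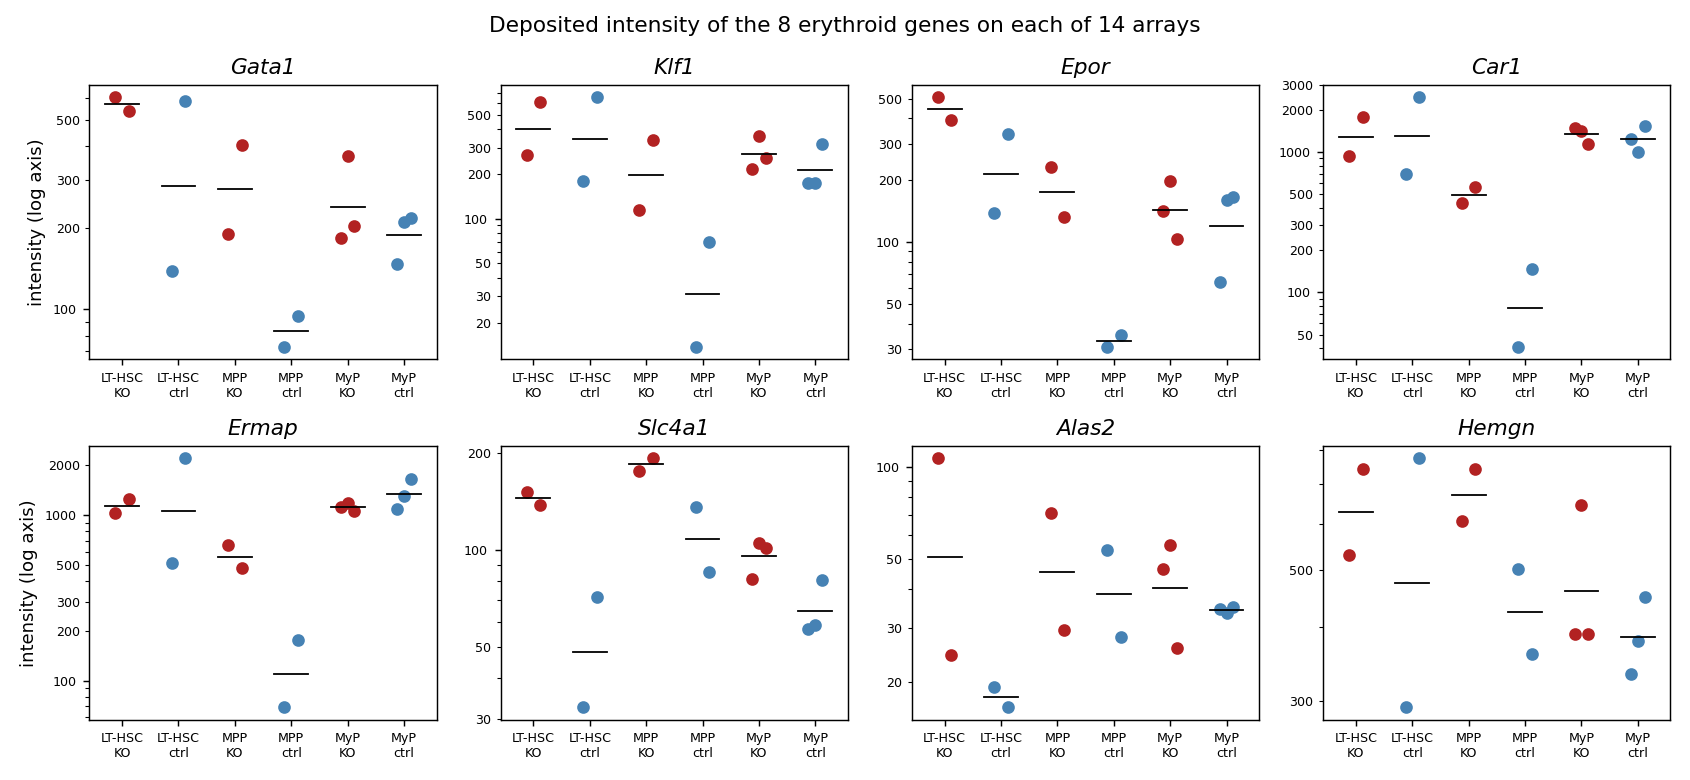
Deposited intensity (log axis) of the 8 erythroid genes on each of the 14 arrays, with knockout arrays in red to the left of control arrays in blue for each population. Points are arrays and black lines are geometric means; MyP stands for myeloid progenitors. Gata1, Klf1, Epor, Car1 and Ermap are lowest in control MPPs, where Epor reads 30.95 and 35.4 units.

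The question of the first comparison is what losing Dnmt1 does to these genes in each population. Gata1, the transcription factor at the head of the lineage, had 189.8 and 406 units in knockout MPPs, against 72.95 and 94.7 units in control MPPs. In LT-HSCs it had 605 and 537 units in the knockout, against 139 and 587 in the control, and in myeloid progenitors 183, 369 and 202 in the knockout, against 147, 209.6 and 217 in the control. The genotypes were separate in MPPs and overlapped in both other populations. Knockout minus control, Gata1 was at 1.62 ± 0.52 in MPPs, 1.00 ± 0.52 in LT-HSCs and 0.38 in myeloid progenitors, as differences of log2(intensity + 16), each with its standard error from a limma fit. None of the 3 differences passed that fit's test at an adjusted p of 0.05, and leaving out single arrays moved the LT-HSC value between 0.073 (without control LT-HSC array 1) and 1.92 (without control LT-HSC array 2).

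Klf1, which Gata1 turns on and which activates the adult globin and red cell membrane genes, had 114 and 338 units in knockout MPPs, against 13.8 and 69.4 units in control MPPs. In LT-HSCs it had 266 and 605 units in the knockout and 179 and 653 in the control, and in myeloid progenitors 216, 360.2 and 255 in the knockout and 172, 174 and 315 in the control. Again only MPPs kept the genotypes apart. The difference in MPPs was 2.24 ± 0.64, with pairs at 2.35 and 2.13. The 13.8 units of control MPP array 1 lay below the 40th percentile of that array, 26.9 units. The size of this difference therefore depends on the constant added to the intensities before log2 was taken.

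Epor, the receptor through which erythropoietin keeps erythroid progenitors alive, had 232 and 133 units in knockout MPPs, against 30.95 and 35.4 units in control MPPs. In LT-HSCs it had 507 and 392 units in the knockout and 138 and 335 in the control, and in myeloid progenitors 142, 198 and 104 in the knockout and 63.8, 160.2 and 165 in the control. Knockout arrays lay above control arrays in MPPs and in LT-HSCs, and the genotypes overlapped in myeloid progenitors. The difference was 2.06 ± 0.46 in MPPs (limma adjusted p = 0.375) and 1.04 ± 0.46 in LT-HSCs (limma adjusted p = 0.733). Both control MPP values were close to the 40th percentiles of their arrays, 26.9 and 23.5 units. The size of the MPP difference therefore depends on the added constant, as for Klf1.

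Car1, the carbonic anhydrase of early erythroid progenitors, had the largest mean difference of the 8 genes in MPPs. It had 436 and 565 units in knockout MPPs, against 41.1 and 146 units in control MPPs. In LT-HSCs it had 929.6 and 1787 units in the knockout and 700.5 and 2449 in the control, and in myeloid progenitors 1492, 1408 and 1146 in the knockout and 1242, 993 and 1528 in the control. Car1 was thus several times as bright in knockout as in control MPPs, while the genotypes overlapped in both other populations. The difference in MPPs was 2.46 ± 0.51 (limma adjusted p = 0.253), with pairs at 3.06 and 1.86.

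Ermap, a membrane protein of erythroid cells, had 657 and 478 units in knockout MPPs, against 68.95 and 176 units in control MPPs. In LT-HSCs it had 1026 and 1258 units in the knockout and 510.1 and 2204 in the control, and in myeloid progenitors 1112, 1179.8 and 1053 in the knockout and 1092, 1308 and 1654 in the control. The difference was 2.19 ± 0.49 in MPPs (limma adjusted p = 0.375) and -0.24 in myeloid progenitors, the one negative value among the 8 genes in the 3 populations.

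Slc4a1, the anion exchanger known as band 3 of the red cell membrane, was the 1 gene of the 8 that was brighter in the knockout array of all 7 pairs, a pattern that 2.14% of all genes tested had. Its main probe set had 176 and 193 units in knockout MPPs, against 136 and 85.7 in control MPPs. It had 151 and 138 units in knockout and 32.5 and 71.3 in control LT-HSCs, and 81.5, 105 and 102 units in knockout and 56.8, 58.6 and 80.7 in control myeloid progenitors. By this probe set the genotypes were separate in each of the 3 populations, also in LT-HSCs and myeloid progenitors, where the first 4 genes and Ermap mostly overlapped. A second probe set, whose _x_ name marks possible binding of other transcripts, was also brighter in the knockout array of 7 of 7 pairs. Its genotypes overlapped in myeloid progenitors, at 49.5, 76.9 and 68.7 units in the knockout and 38.4, 33.3 and 56.3 in the control. The last probe set stayed between 3.71 and 11.4 units on all arrays, below the filter. The difference of the main probe set was 1.34 ± 0.32 in LT-HSCs (limma adjusted p = 0.295) and 0.85 ± 0.17 on average over the 3 populations (limma adjusted p = 0.0858). The second probe set gave a smaller value in LT-HSCs, 0.62, and 0.70 on average. In MPPs it gave 1.00, where the main one gave 0.74, so the 2 probe sets differ on which population changed most.

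Alas2, the erythroid enzyme that starts heme synthesis, was dim throughout. It had 107 and 24.4 units in knockout and 19.25 and 16.5 in control LT-HSCs, 70.9 and 29.4 in knockout and 53.75 and 27.9 in control MPPs, and 46.5, 55.6 and 25.7 in knockout and 34.4, 33.4 and 35.1 in control myeloid progenitors. Most of these values are close to the 40th percentile of an array, which lay between 19.8 and 26.9 units. The sizes of its differences therefore depend on the added constant, as for Klf1 and Epor. Among the 14 arrays, knockout LT-HSC array 1 was the brightest.

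Hemgn, a nuclear protein of blood progenitors and erythroid cells, had 606 and 745 units in knockout MPPs, against 503 and 360.1 in control MPPs. It had 531 and 744 units in knockout and 293 and 776 in control LT-HSCs, and 390.0, 647 and 389 in knockout and 334, 379.8 and 450.1 in control myeloid progenitors. It separated the genotypes in MPPs, as 6 of the other genes did. The difference was 0.65 ± 0.37 in MPPs and 0.49 ± 0.20 on average over the 3 populations, with the knockout array brighter in 6 of 7 pairs.

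For the 8 genes, knockout MPPs stood apart from control MPPs more often than for the genes of this array at large. The 8 were chosen with earlier results of these data known, and several of them varied together. Shares of all genes, here and elsewhere, are therefore a background and not a test. Every knockout MPP array lay above every control MPP array for 7 of the 8 genes, all but Alas2, against 12.1% of all genes tested. The median difference of the 8 was 1.84, against 0.00 over all genes. None of the 8 passed the limma test at an adjusted p of 0.05, which 0.0697% of all genes did, and 6 of 8 were higher at an unadjusted p under 0.05, as were 1.42% of all genes. With the littermate pair as a block, Car1 (adjusted p = 0.0197) and Klf1 (adjusted p = 0.0292) rose in knockout MPPs by limma. Without control LT-HSC array 1 or 2, which enter only through the shared spread, Ermap passed, at a limma adjusted p of 0.0353 and 0.0374. With no LT-HSC array in the fit the 8 differences were the same, 0 of 8 passed, and the lowest limma adjusted p was 0.0637, that of Ermap.

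Knockout LT-HSCs and knockout myeloid progenitors gave smaller values. In LT-HSCs, 0 of 8 genes passed by limma, where 0.0697% of all genes did, and 2 of 8, Epor and Slc4a1, were higher at an unadjusted p under 0.05, as were 3.47% of all genes. The genotypes were separate there for Epor, Slc4a1 and Alas2, 3 of 8 genes, against 12.9% of all genes. LT-HSC pair 1 lay at 0.50 to 2.11 for all 8 genes, whereas pair 2 was negative for Gata1, Klf1, Car1 and Ermap, at -0.11, -0.08, -0.41 and -0.74. Pair 1 has the high Gapdh and the low Actb 3′ to 5′ ratios on both arrays, and the part of RNA quality in the result was not tested. T and NK cell markers moved with the genotype in LT-HSCs: 6 of 6 had positive differences, with a median of 0.84 against 0.73 for the 8 erythroid genes, and 3 of 6, Thy1, Il2rb and Eomes, were past an unadjusted p of 0.05 and 0 past the limma threshold. Their summed intensity was 826 and 633 in knockout against 291 and 267 in control LT-HSCs, and the part of such cells in the result was not tested. In myeloid progenitors 0 of 8 passed by limma, where 0.0929% of all genes did, and 0 of 8 were past an unadjusted p of 0.05, as were 1.02% of all genes. Slc4a1, by its main probe set and not by its second, was the 1 gene of 8 with separate genotypes, against 2.79% of all genes. Pair 3 of the myeloid progenitors was negative for all genes but Slc4a1, at -0.65 to -0.04.

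**Figure D2:**
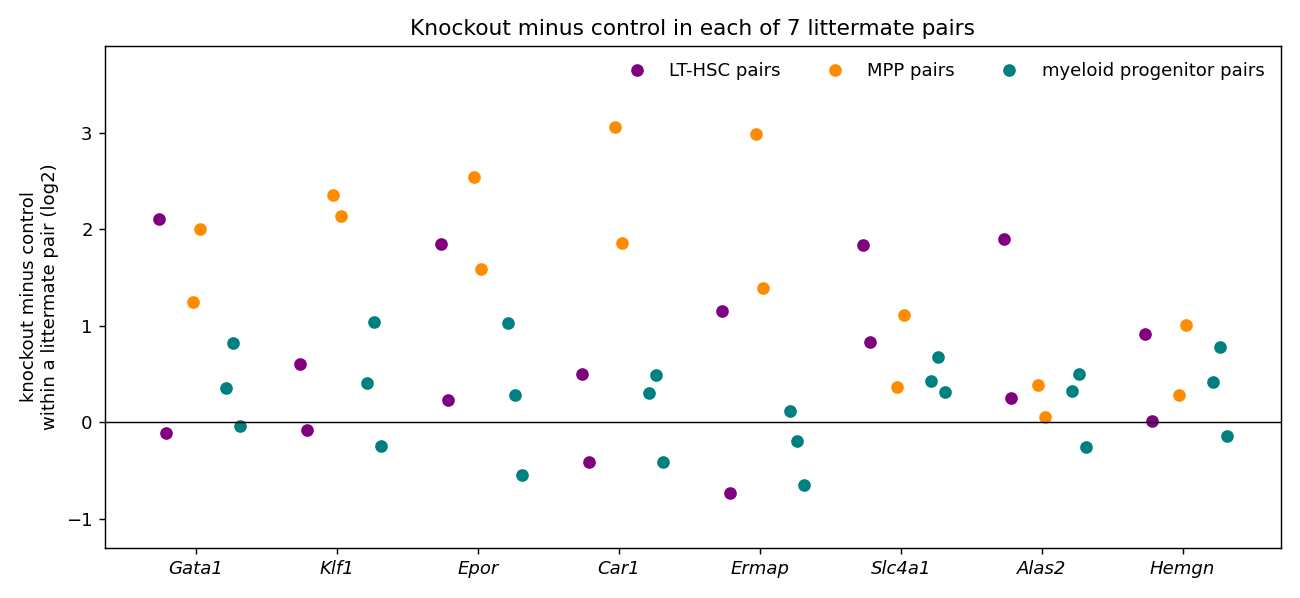
Difference between the knockout and the control array of each of 7 littermate pairs, in log2 units, for the 8 erythroid genes. Each point is 1 pair, coloured by population. The 2 MPP pairs lie at 1.24 or above for Gata1, Klf1, Epor, Car1 and Ermap, and all 7 pairs lie above 0 for Slc4a1.

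On average over the 3 populations, all 8 genes had positive differences, 0.49 to 1.12, with a median of 0.86 against -0.01 over all genes. By limma 0 of 8 passed, where 0.232% of all genes did, and 7 of 8, all but Alas2, were higher at an unadjusted p under 0.05, as were 3.20% of all genes. At least 6 of 7 pairs were positive for Epor, Slc4a1, Alas2 and Hemgn, 4 of 8 genes, against 9.78% of all genes. With the pair as a block, Klf1 (adjusted p = 0.0292), Car1 (adjusted p = 0.0479) and Slc4a1 (adjusted p = 0.0479) rose by limma. Without control LT-HSC array 2, in which Gata1, Klf1, Car1 and Ermap lay within or above the range of the knockout LT-HSC arrays, Gata1 (1.31, adjusted p = 0.0282), Slc4a1 (0.97, adjusted p = 0.0282), Ermap (1.04, adjusted p = 0.0374) and Epor (1.29, adjusted p = 0.0405) passed by limma. Averaged over MPPs and myeloid progenitors alone, with no LT-HSC array in the fit, 0 of 8 passed, and Car1 was at 1.29 and Klf1 at 1.32, with limma adjusted p of 0.15 and 0.464.

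Whether the knockout acted more strongly in MPPs was tested as a difference between knockout effects. For LT-HSCs minus MPPs the effects on Car1, Ermap and Klf1 differed by -2.42 ± 0.72, -1.98 ± 0.69 and -1.98 ± 0.90, and for myeloid progenitors minus MPPs those on Ermap, Car1, Klf1 and Epor differed by -2.43 ± 0.63, -2.33 ± 0.66, -1.84 ± 0.82 and -1.81 ± 0.60. Negative values mean a smaller effect than in MPPs. By limma 0 of 8 genes passed in either, as did 0.00% of all genes. The genes just named, 3 and 4 of 8, were lower at an unadjusted p under 0.05, as were 1.59% and 0.325% of all genes. Between myeloid progenitors and LT-HSCs the effects differed by -0.88 to 0.14, with 0 of 8 past an adjusted or an unadjusted p of 0.05, the second of which 2.65% of all genes passed. A stronger effect in MPPs was therefore not shown at an adjusted p of 0.05.

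Markers of other cells were read on the same arrays. In MPPs all 7 mast cell and basophil markers measured had positive knockout differences, with a median of 0.83, and their summed intensity was 921 and 1491 in knockout against 353 and 784 in control MPPs. None of the 7 passed by limma, and 1, Hdc, was past an unadjusted p of 0.05. Mast cell progenitors also express Gata1, and the part of such cells in the MPP result was not tested. Megakaryocyte markers, another lineage that uses Gata1, had a median of -0.27 over 9 genes. Of these 3, Vwf (0.76), Itga2b (0.37) and Treml1 (0.13), had positive differences. By limma 0 of 9 passed, and 1, Itgb3, was lower (-0.69) at an unadjusted p under 0.05. The 9 genes summed to 1220.4 and 469.9 in knockout against 1352 and 571 in control MPPs. Primary granule genes summed to 9685 and 12953 in knockout against 7117 and 14480 in control MPPs, B cell markers to 2656 and 190.0 against 686 and 311, T and NK cell markers to 236.5 and 195 against 169.9 and 159, and stem cell genes to 2694 and 1281 against 4778 and 2393, while the 8 erythroid genes summed to 2482 and 2887 against 921 and 995. Mature granulocyte markers summed to 608 and 6716 in knockout against 2341 and 3628 in control MPPs. Monocyte markers summed to 1297 and 1215 against 636 and 2903. Of the 8 stem cell genes, 2 had positive knockout differences in MPPs, with a median of -0.61. The part of these cell types in the MPP result was not tested.

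**Figure D3:**
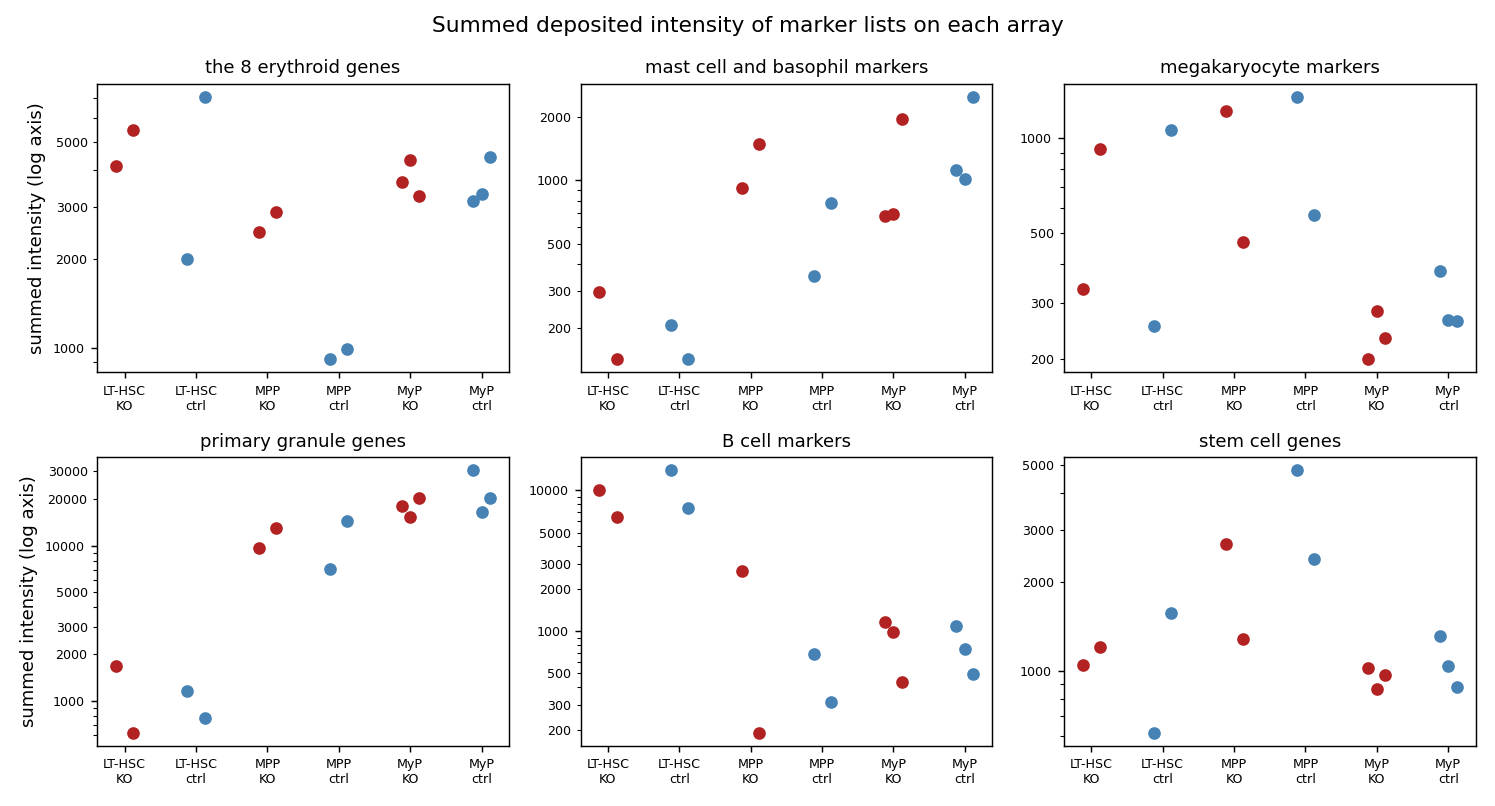
Summed deposited intensity (log axis) of the 8 erythroid genes and of 5 marker lists on each array, with knockout arrays in red to the left of control arrays in blue for each population. Points are arrays; MyP stands for myeloid progenitors. Control MPPs are lowest for the erythroid genes, at 921 and 995 units, and LT-HSC arrays are highest for B cell markers.

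A second comparison sets the sorted populations against each other within each genotype. In control cells, Car1 was 3.86 ± 0.51 higher in LT-HSCs than in MPPs (limma adjusted p = 0.00256), Ermap 3.09 ± 0.49 (adjusted p = 0.00748), Klf1 2.94 ± 0.64 (adjusted p = 0.0301) and Epor 2.31 ± 0.46 (adjusted p = 0.0211). These 4 of 8 genes passed, against 2.33% of all genes, and Gata1 was at 1.65 (limma adjusted p = 0.139). Without control LT-HSC array 1 Gata1 passed as well (2.57, limma adjusted p = 0.0292), as it did without both arrays of LT-HSC pair 1 (adjusted p = 0.0236), and without control LT-HSC array 2 it was at 0.72. Every control LT-HSC array lay above every control MPP array for the same 4 genes and Gata1, 5 of 8, against 19.4% of all genes. Each of these calls rests on 2 arrays a group. Without control MPP array 1 the Klf1 (2.12, adjusted p = 0.274), Epor (2.21, adjusted p = 0.139) and Ermap (2.51, adjusted p = 0.0626) calls of limma were lost. Without control LT-HSC array 2 those of Klf1 (2.11, adjusted p = 0.102) and Epor (1.77, adjusted p = 0.0716) were lost, and without control MPP array 2 that of Epor (2.41, adjusted p = 0.0707). With a pseudocount of 64 Klf1 missed the limma threshold as well (2.07, adjusted p = 0.0533). Klf1 and Epor were dim in control MPPs, so the sizes of their differences from control MPPs depend on the pseudocount. Beside these values, 11 of 11 B cell markers were higher in control LT-HSCs, 8 of them past the limma threshold, with a median of 4.11, and 7 of 7 primary granule genes were lower, with a median of -3.46; their part in the result was not tested.

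Control myeloid progenitors, the gate in which the megakaryocyte and erythroid progenitors lie, stood above control MPPs in the same 5 genes, against 13.4% of all genes with such separation. Car1 was 3.72 ± 0.46 higher (limma adjusted p = 0.00774) and Ermap 3.39 ± 0.45 higher (limma adjusted p = 0.0100), 2 of 8 genes, against 0.0813% of all genes. Klf1 was at 2.26, Epor at 1.54 and Gata1 at 1.06, and did not pass. Klf1 passed without control MPP array 2 (3.08, limma adjusted p = 0.036) and was at 1.44 without control MPP array 1. Without control MPP array 1, Car1 (2.95, adjusted p = 0.269) and Ermap (2.80, adjusted p = 0.49) missed the limma threshold, as did both without control myeloid progenitor array 3 (3.60 and 3.27, adjusted p = 0.0593 and 0.0743) and Ermap without array 2 (3.35, adjusted p = 0.0573). With no LT-HSC array in the fit both passed, with limma adjusted p of 0.00166 for Car1 and 0.0011 for Ermap. Other markers moved between these gates as well: 7 of 8 monocyte markers had positive differences (median 1.52), 6 of them past an unadjusted p of 0.05, 7 of 7 primary granule genes did (median 0.96), 0 of 9 megakaryocyte markers did (median -0.63), and 1 of 8 stem cell genes did (median -1.20). None of these 4 lists had a gene past the limma threshold, and their part in the result was not tested. The Gapdh 3′ to 5′ ratio was 5.27, 4.30 and 2.25 in control myeloid progenitors against 2.86 and 2.44 in control MPPs. That of Actb was 1.18, 0.92 and 1.13 against 1.04 and 1.10. The part of RNA quality in this comparison was not tested. Control myeloid progenitors and control LT-HSCs differed by -0.77 to 0.59 in the 8 genes, and 0 of 8 passed by limma, where 6.46% of all genes did; 0 of 8 were past an unadjusted p of 0.05, as were 20.0% of all genes.

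In knockout cells the distance from MPPs was smaller for these 5 genes. Knockout LT-HSCs minus knockout MPPs gave 1.44 for Car1, 1.28 for Epor, 1.11 for Ermap, 1.02 for Gata1 and 0.96 for Klf1. By limma 0 of 8 genes passed, where 0.511% of all genes did, and 3 of 8 were higher at an unadjusted p under 0.05, as were 4.83% of all genes. Knockout myeloid progenitors minus knockout MPPs gave 1.38 for Car1, 0.96 for Ermap, 0.42 for Klf1, -0.19 for Gata1 and -0.28 for Epor. By limma 0 of 8 passed, as did 0.00% of all genes, and 2 of 8, Car1 and Slc4a1 (-0.85), were past an unadjusted p of 0.05, as were 5.65% of all genes. The change in distance between genotypes is the same quantity as the difference between knockout effects given above, which did not pass. Knockout myeloid progenitors were lower than knockout LT-HSCs in all 8 genes, at -1.55 to -0.06. By limma 0 of 8 passed there, where 3.80% of all genes did, 2 of 8 were lower at an unadjusted p under 0.05, as were 7.80% of all genes, and the lowest adjusted p was 0.0588, that of Epor.

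**Figure D4:**
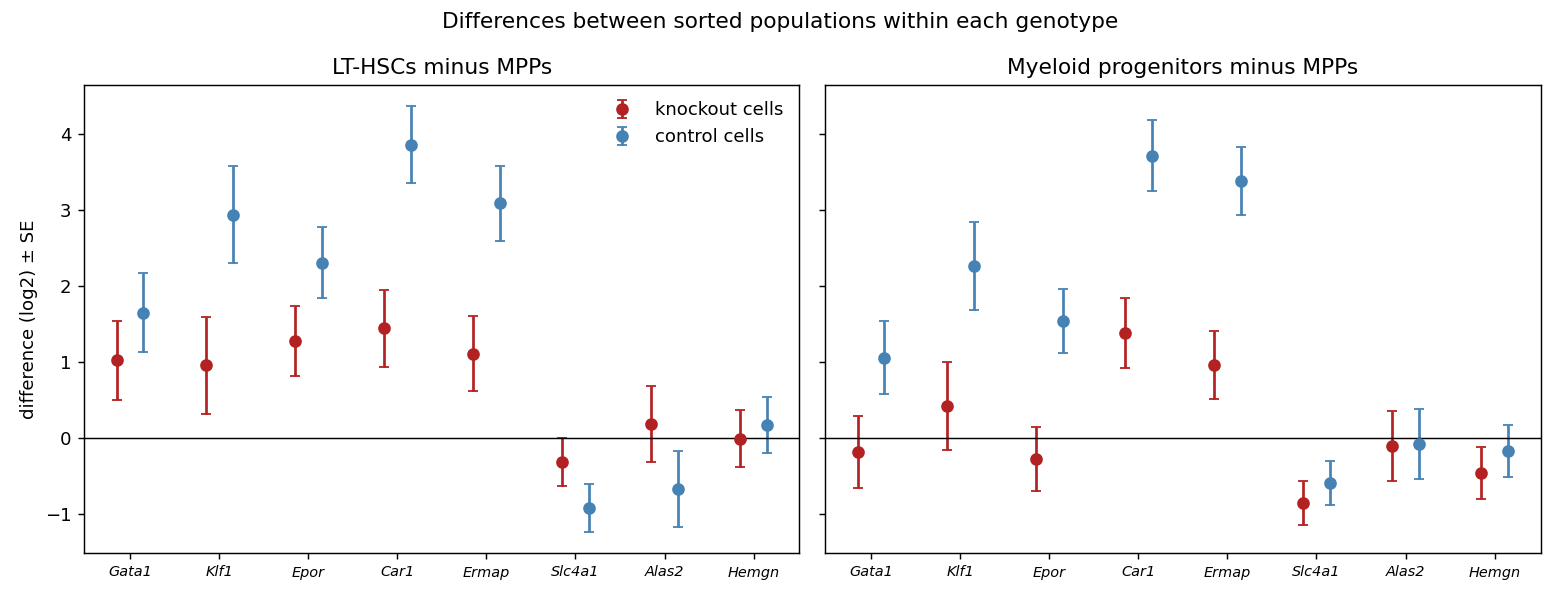
Difference from MPPs, in log2 units with the standard error of the limma fit, of LT-HSCs (left) and myeloid progenitors (right) for the 8 erythroid genes, in knockout cells (red) and control cells (blue). Control cells lie at 1.06 or above for Gata1, Klf1, Epor, Car1 and Ermap in both panels, and knockout cells lie lower for each of these genes.

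Ranked by mean level over the 6 groups, on the log2(intensity + 16) scale with the SD over arrays, control MPPs were last for Gata1 (6.60 ± 0.19), Klf1 (5.55 ± 1.16), Epor (5.55 ± 0.14), Car1 (6.54 ± 1.09) and Ermap (6.98 ± 0.82), with n = 2 each. For all 5 the step up to the next group exceeded the larger SD of the 2 groups. Knockout LT-HSCs were first for Gata1 (9.25 ± 0.26), Klf1 (8.75 ± 0.69), Epor (8.89 ± 0.39) and Car1 (10.44 ± 0.50), n = 2 each, and control myeloid progenitors for Ermap (10.36 ± 0.28, n = 3). In Gata1 and Klf1 every other step between neighbours was within the larger SD. In Epor the step between knockout and control LT-HSCs also exceeded it, and in Car1 and Ermap that between knockout MPPs and the group above did so in Car1 but not in Ermap. Control LT-HSCs were last for Slc4a1 (6.01 ± 0.50) and Alas2 (5.09 ± 0.09), n = 2 each, and control myeloid progenitors for Hemgn (8.59 ± 0.20, n = 3). Knockout MPPs were first for Slc4a1 (7.67 ± 0.09) and Hemgn (9.41 ± 0.19), n = 2 each. Because probe sets differ in brightness, these levels order the groups within a gene and not the genes.

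Further genes of red cell formation were read from 7 lists with 71 measured genes: other erythroid transcription factors, erythropoietin signalling, heme synthesis, iron handling, globins, red cell membrane and skeleton, and red cell metabolism. In knockout MPPs 49 of the 71 had positive differences, with a median of 0.11, and by limma 0 passed in any of the 4 knockout comparisons. Past an unadjusted p of 0.05 in knockout MPPs were 5 of the 71, all higher, against 1.42% of all genes: Tspan33 (1.27), a tetraspanin of erythroid progenitors, Aqp1 (1.22), the water channel of the red cell membrane, Slc11a2 (1.21), which moves iron out of endosomes, Zfpm1 (1.15), the Gata1 cofactor also called Fog1, and Xk (0.97), a red cell membrane protein. The medians were 0.05 for the 13 transcription factors, -0.09 for 10 genes of erythropoietin signalling, 0.31 for 10 of heme synthesis, 0.11 for 11 of iron handling, 0.09 for 2 globins, 0.21 for 15 of the membrane and 0.08 for 10 of metabolism, against 1.84 for the 8 erythroid genes.

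On average over the populations 4 of the 71 genes were higher and 1 lower at an unadjusted p under 0.05, as were 3.20% and 2.87% of all genes. Hbb-b2, a beta-globin gene whose reads on an array cannot be told from those of near-identical copies, was at 0.82 ± 0.21 (limma adjusted p = 0.227), and Hba-a2, an alpha-globin gene with a near-identical copy, at -0.07. Only these 2 of 11 globin list symbols were measured above the filter. Tspan33 was at 0.66, Blvrb, a biliverdin reductase abundant in red cells, at 0.66, Zfpm1 at 0.48 and Myb, a factor that keeps progenitors dividing, at -0.22. The smallest p of the other lists belonged to Stat5a (0.27) and Bcl2l1 (-0.34) in erythropoietin signalling, Fech (0.33) and Alas1 (0.46) in heme synthesis, Hebp1 (0.36) and Tfrc (0.20) in iron handling, Rhag (0.45) in the membrane list after Tspan33, and Bpgm (0.20) in the metabolism list after Blvrb. None of these passed the limma test.

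**Figure D5:**
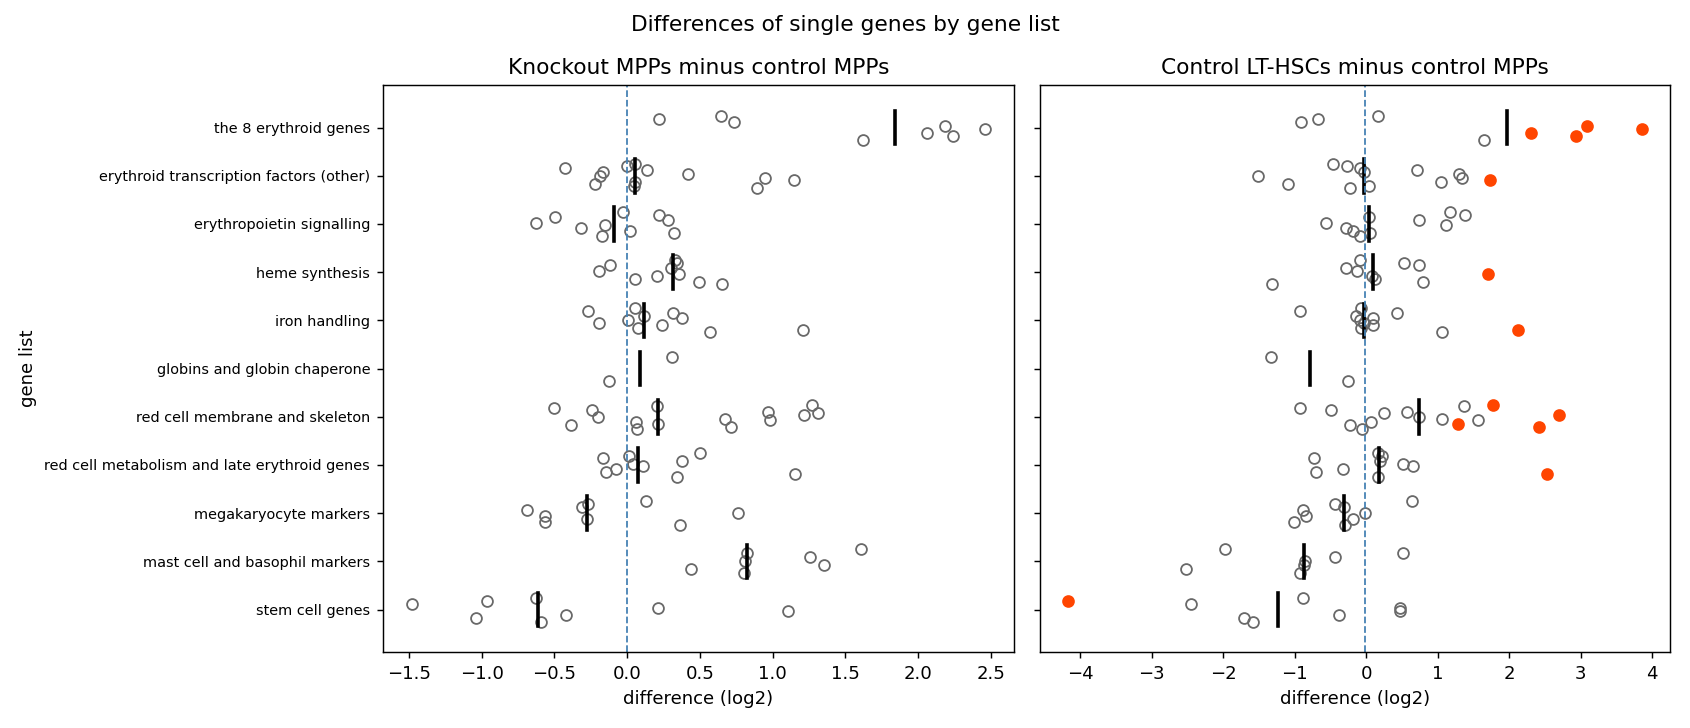
Differences of single genes in log2 units by gene list, for knockout MPPs minus control MPPs (left) and control LT-HSCs minus control MPPs (right). Circles are genes, filled orange where the limma adjusted p is under 0.05, black bars are list medians and the dashed line is the median of all genes. The 8 erythroid genes have medians of 1.84 and 1.98, and the 7 lists below them lie nearer 0.

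Between control LT-HSCs and control MPPs, 8 of the 71 genes were higher by limma and 0 lower, where 2.33% of all genes passed in either direction. They were Aqp1 (2.69), Blvrb (2.53), Ank1 (2.43), the ankyrin of the red cell skeleton, Slc11a2 (2.13), Tspan33 (1.78), Zfpm1 (1.74), Cpox (1.71), a heme synthesis enzyme, and Add2 (1.28), a skeleton protein, with limma adjusted p of 0.00878 to 0.0384. Aqp1, Slc11a2, Tspan33 and Zfpm1 are also among the 5 genes past the unadjusted threshold in knockout MPPs; both comparisons use the same control MPP arrays, so this is no independent repeat. In knockout cells 1 of the 71, Ank1, was higher in LT-HSCs than in MPPs (2.08, limma adjusted p = 0.0388), where 0.511% of all genes passed. Between control myeloid progenitors and control LT-HSCs 4 of the 71 passed by limma, where 6.46% of all genes did, a share no smaller than that of the list. These were 1 gene higher, Alas1 (3.64), the heme enzyme used outside the erythroid lineage, and 3 lower, Bcl11a (-2.29), a repressor of fetal globin that also serves B cell development, Socs2 (-2.14), a brake on cytokine signals, and Bcl2l1 (-1.61), a survival factor. Alas1 (2.41) and Bcl11a (-1.68) passed by limma in knockout cells too, where 3.80% of all genes did.

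The 5 other genes whose log2 levels correlated best with the mean standardized level of the 8 erythroid genes, over the 14 arrays, were Col5a1 (r = 0.952), Eps8l3 (0.912), Nckap1 (0.912), Ces2g (0.903) and Mrpl57 (0.889). Col5a1 had 383 and 633 units in knockout MPPs against 10.9 and 18.2 in control MPPs, 660.4 and 879 in knockout against 109 and 519 in control LT-HSCs, and 227, 859 and 292 in knockout against 64.3, 132 and 204 in control myeloid progenitors. It was brighter in the knockout array of every pair, where the erythroid genes other than Slc4a1 were not. These correlations describe arrays that share groups and littermates.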

How the data were processed

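RNA of 14 sorted samples was measured on Affymetrix arrays, 1 array a sample. The values deposited by the authors were read as linear intensities, 1 for each probe set, from their range; the authors' summarisation and scaling are not given in the sources used here. A pseudocount of 16 was added, log2 taken and the 14 arrays quantile normalized, because array medians and interquartile ranges differed by 0.19 and 0.32 log2 units, above a limit of 0.1. The number of arrays, and not a read depth, limits the precision.

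The platform annotation gave 1 symbol to 20393 of 22690 probe sets, several to 691 and none to 1606, and 20364 were matched to the GRCm38.p6 gene table, which changed 0 symbols. Probe sets above the 40th percentile of their array on at least 2 arrays were kept, and the brightest on average stood for its gene. All tests came from 1 limma fit (limma 3.58.1, R 4.3.3) of 6 group means and a trended prior (median 5.39 prior and 8 residual degrees of freedom), two-sided, with Benjamini-Hochberg adjustment over 8612 genes and a threshold of 0.05. The fit was also run on simulated arrays. These were drawn independently of each other, with changes larger than any mean knockout difference of the 8 genes. They do not show how the fit handles littermate pairs or smaller changes. Figures used Python 3.11.15 and matplotlib 3.10.9.

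The labels pair knockout and control samples as littermates. Within the pairs the deviations from group means correlated at 0.20, 0.54 and 0.61 for myeloid progenitors, at 0.60 for MPPs and at 0.46 for LT-HSCs. The block fit has 4 residual degrees of freedom for knockout effects and, for populations, a random block with a correlation of 0.50. Alternatives were pseudocounts of 1 and 64, no filter, median centring, every probe set, the block, leaving out each array, and, added after the values were seen, leaving out both arrays of LT-HSC pair 1 or all LT-HSC arrays.

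Genes named are the 8 erythroid genes with all their probe sets, Dnmt1, list genes past the threshold or with the 2 smallest p-values of a list in the average, list genes past an unadjusted p of 0.05 in knockout MPPs, and the 5 genes most like the 8. The members and lists were chosen with earlier results of these data known.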

Additional observations from a re-analysis of the deposited data

How the results depend on the processing

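The count of the 8 erythroid genes past the limma threshold stayed at 0 in LT-HSCs, in myeloid progenitors, in the 3 differences between knockout effects, in control myeloid progenitors minus LT-HSCs and in knockout LT-HSCs and myeloid progenitors minus MPPs under every alternative run. With the replicate block it was 2 in MPPs and 3 in the average; leaving out single arrays gave 0 to 1 and 0 to 4. Leaving out single arrays gave 0 to 3 in control myeloid progenitors minus MPPs, 1 to 5 in control LT-HSCs minus MPPs and 0 to 1 in knockout myeloid progenitors minus LT-HSCs, which was also 1 with a pseudocount of 64. The block changed no other of these counts by more than 1.5 times. Of 80 gene values, leaving out single arrays turned the sign of 20 and moved another 31 by over 1.5 times with the sign kept.

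Signs turned in values that had not passed, and the cause was not tested. In knockout LT-HSCs, median centring put Car1 at -0.013. Leaving out both arrays of LT-HSC pair 1, chosen after seeing the data, put Gata1 at -0.11, Klf1 at -0.078, Car1 at -0.41 and Ermap at -0.74 there, and in knockout LT-HSCs minus MPPs Alas2 at -0.70 and Hemgn at 0.15. The remaining turns came from single arrays left out, given as ranges. They were -0.57 to 1.09 for Klf1, -0.77 to 0.85 for Car1, -0.76 to 1.17 for Ermap and -0.15 to 1.08 for Hemgn in knockout LT-HSCs, -0.27 to 0.71 for Alas2 in knockout MPPs and -0.10 to 0.48 for Epor in knockout myeloid progenitors. For effects in LT-HSCs minus MPPs they were -1.55 to 0.30 for Gata1, -0.033 to 1.75 for Alas2 and -0.79 to 0.43 for Hemgn, and for effects in myeloid progenitors minus MPPs -0.57 to 0.052 for Slc4a1 and -0.52 to 0.46 for Alas2. In control cells they were -0.40 to 0.24 for Alas2 and -0.40 to 0.055 for Hemgn in myeloid progenitors minus MPPs, and -0.44 to 0.78 for Hemgn in LT-HSCs minus MPPs. In knockout myeloid progenitors minus MPPs they were -0.70 to 0.33 for Gata1, -0.29 to 1.13 for Klf1, -0.65 to 0.10 for Epor and -0.60 to 0.38 for Alas2, and in knockout LT-HSCs minus MPPs -0.70 to 1.07 for Alas2 and -0.17 to 0.15 for Hemgn.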
